A study of Mus musculus and Sus scrofa with 18 samples.

Results

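Retinoid binding and retinoic acid synthesis were followed through 9 mouse genes, Rbp4, Stra6, Rdh10, Dhrs3, Aldh1a1, Aldh1a2, Aldh1a3, Crabp1 and Crabp2, which were taken by name from the 55357 gene IDs counted in the mouse striatum. RNA was sequenced from 9 mice, 3 in each of 3 groups, to ask which genes were dysregulated in a Huntington's disease (HD) model and how they stood after treatment with CasRx, a Cas13 enzyme that cuts RNA at sites chosen by guide RNAs (gRNAs). WT mice had been injected with AAV9 carrying a control gRNA and no CasRx. Untreated mice were heterozygous HD 140Q-KI mice, whose own Htt gene holds exon 1 of human HTT with a long CAG tract. They received AAV9-CasRx with the control gRNA. Treated mice were HD 140Q-KI mice that received AAV9-CasRx with 4 gRNAs against HTT (gRNA1 + 2 and gRNA3 + 4). The HD mice were injected into the striatum on both sides at 6 months of age, and mice were killed 1.5 months after injection. Since WT mice had neither, the effects of the knock-in and of the CasRx vector cannot be told apart in comparisons with WT.

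Retinol travels in blood bound to Rbp4 and can enter cells through Stra6. Retinol dehydrogenases such as Rdh10 oxidise it to retinaldehyde, Dhrs3 turns retinaldehyde back into retinol, and the aldehyde dehydrogenases Aldh1a1, Aldh1a2 and Aldh1a3 make retinoic acid from it. Retinoic acid is held in the cytoplasm by Crabp1 and Crabp2 and acts through nuclear receptors of the RAR and RXR families, of which Rarb and Rxrg are the forms most typical of striatal projection neurons.

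Of the 9 genes, 1 changed between groups, Crabp1, which was lower in untreated than in WT mice. A gene is said to have changed when edgeR's quasi-likelihood F test gave an adjusted p under 0.05, adjusted by Benjamini and Hochberg's method over all 19463 genes tested. The receptors Rarb and Rxrg, which are described after the 9 genes, were also lower in untreated mice, and both were lower in treated mice as well. The sequences just upstream of Crabp1 and Rarb are shown because these are the binding protein and the retinoic acid receptor that fell furthest in untreated mice. Each is the run of 250 bases before the gene's start in RefSeq (build GRCm38.p6), read 5′ to 3′ on the gene's own strand. It lies at chr9:54764498-54764747 on the plus strand for Crabp1 and at chr14:16575477-16575726 on the minus strand for Rarb. Capitals mark a match to a paired receptor motif.

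Crabp1: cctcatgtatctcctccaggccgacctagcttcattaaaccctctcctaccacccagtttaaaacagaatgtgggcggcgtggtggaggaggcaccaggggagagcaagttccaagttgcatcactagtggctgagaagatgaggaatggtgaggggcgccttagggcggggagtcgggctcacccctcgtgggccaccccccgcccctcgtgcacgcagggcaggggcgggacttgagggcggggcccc

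Rarb: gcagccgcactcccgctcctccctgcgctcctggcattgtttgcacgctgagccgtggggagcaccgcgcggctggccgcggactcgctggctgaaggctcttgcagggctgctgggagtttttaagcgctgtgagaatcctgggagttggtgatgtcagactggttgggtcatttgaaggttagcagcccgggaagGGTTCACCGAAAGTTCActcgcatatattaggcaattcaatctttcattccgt

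Heterodimers of RAR and RXR bind direct repeats of a short core motif, which was searched here as NGNTCA on both strands, with 1, 2 or 5 bases between the copies. These 3 motifs share their core and can overlap each other. Windows were found for 6 of the 9 genes (none for Aldh1a3, Crabp2 and Rdh10) and for all 6 receptors. The match in the Rarb window has 5 bases between the copies and lies from position -53 to -37 relative to the start. No other window found for these genes holds any of the 3 motifs. Across all 32851 windows of the same length in the table, 1.01% hold the motif with 1 base between the copies, 0.886% that with 2 bases and 0.776% that with 5 bases. A match describes the letters in the window and is not evidence of binding.

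The libraries were of like depth, with 27184356 to 32102121 counts, and each library came from 1 mouse. Htt, the gene targeted, had 182 to 191 CPM (counts relative to the library size after TMM scaling) in WT, 140 to 150 CPM in untreated and 130 to 140 CPM in treated mice, and these counts were not split by allele. Its log2 fold change against WT was -0.37 (edgeR adjusted p = 0.00656) in untreated and -0.46 (edgeR adjusted p = 0.00425) in treated mice. In treated against untreated mice it was -0.1 (95% interval -0.23 to 0.03, edgeR adjusted p = 0.942), which did not pass the test. Y-linked genes had 3435 to 5005 summed counts in the 3 WT mice and untreated replicate 1 and 0 counts in the other 5 mice. Sex therefore cannot be told apart from the difference between WT and treated mice. It was also unequal in untreated against WT and in treated against untreated mice, since untreated replicate 1 alone of its group had these counts. Lists of cell type markers also moved with the groups. The summed level of 14 striatal projection neuron markers was 8614 to 11340 CPM in WT, 2814 to 3336 CPM in untreated and 4348 to 4423 CPM in treated mice, with 14 of 14 passing the adjusted threshold as lower in untreated than in WT mice (10.7% of all tested genes passed in either direction) and 11 of 14 in treated than in WT mice (3.69% of all genes). The summed level of 8 cortical excitatory neuron markers was 247 to 942 CPM in WT, 1093 to 1296 CPM in untreated and 745 to 811 CPM in treated mice. That of 17 choroid plexus markers varied most within groups, from 71.8 to 4037 CPM in WT, 42.6 to 203 CPM in untreated and 45.5 to 1400 CPM in treated mice. The 8 microglia markers summed to 323 to 357 CPM in WT, 402 to 984 CPM in untreated and 500 to 649 CPM in treated mice, and the 9 endothelial markers to 194 to 225 CPM, 238 to 284 CPM and 249 to 267 CPM in the same order. The 8 oligodendrocyte markers summed to 9323 to 10182 CPM, 7325 to 7997 CPM and 7753 to 11654 CPM. Of 8 tested T cell and B cell markers, 5 rose and 1 fell in untreated against WT mice, and the list summed to 63.6 to 80.6 CPM in WT, 28.4 to 165 CPM in untreated and 92.9 to 155 CPM in treated mice. The 1 that fell was Cd4, with 62.6, 79.8 and 73.5 CPM in the WT mice and 18.2, 21.8 and 14.5 CPM in the untreated mice. Cd4 made up nearly all of the list's sum in WT mice. Over the 9 mice, astrocyte markers summed to 3120 to 3805 CPM and ependymal markers to 32.5 to 64.1 CPM. Meningeal and perivascular fibroblast markers summed to 50.7 to 213 CPM and midbrain dopaminergic neuron markers to 39.4 to 93.2 CPM. None of these sums separated WT from untreated mice. Most of the astrocyte sum was Slc1a2, with a mean of 2366 CPM in WT mice. Gfap averaged 137 CPM in WT, 357 CPM in untreated and 361 CPM in treated mice, and WT mice overlapped with neither HD group. Its edgeR adjusted p against WT was 0.0546 in untreated and 0.0838 in treated mice. Of the astrocyte markers, 4 had a positive and 4 a negative log2 fold change in untreated against WT mice. The part of these lists in the results on retinoid genes was not tested. In whole striatum, fewer cells of a type and less RNA per cell cannot be told apart.

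**Figure D1:**
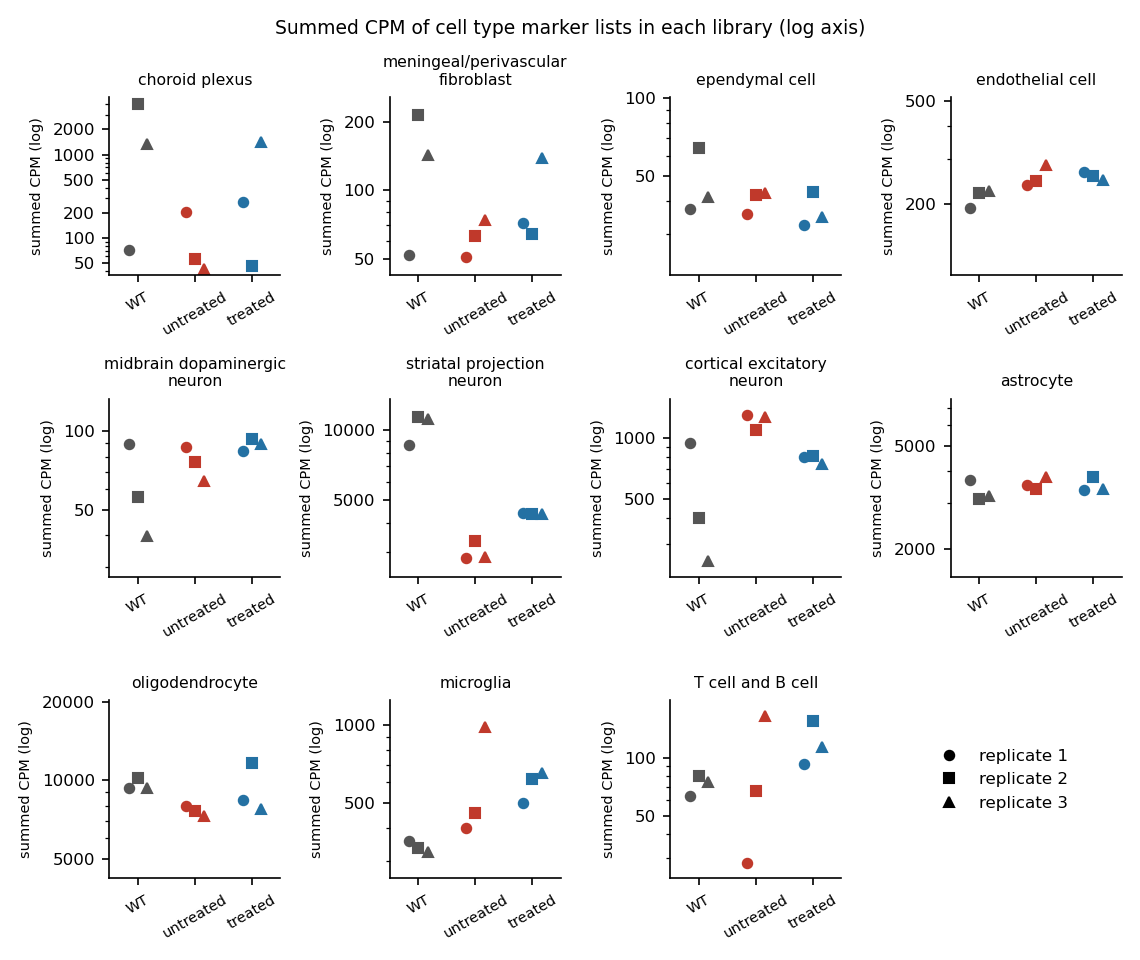
Summed CPM (log axis) of 11 lists of cell type markers in each of the 9 libraries, with groups along the horizontal axis and a symbol for each replicate. Striatal projection neuron markers were highest in the 3 WT mice and lowest in the 3 untreated mice, whereas choroid plexus markers ranged from 71.8 to 4037 CPM among WT mice alone.

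Rbp4 (ENSMUSG00000024990, chromosome 19), the plasma carrier of retinol, had 13.8, 14.6 and 12.4 CPM in the WT mice, 12.7, 11.1 and 9.75 CPM in the untreated mice and 10.4, 10.2 and 8.79 CPM in the treated mice. Every treated mouse was below every WT mouse, while untreated mice overlapped with both other groups. Treated against WT mice had a log2 fold change of -0.47 (standard error 0.13, 95% interval -0.77 to -0.17, adjusted p = 0.0867), a 1.39-fold lower level that did not pass the edgeR test. DESeq2 gave a log2 fold change of -0.46 and an adjusted p of 0.0315 for the same comparison. In untreated against WT mice it was -0.28 (standard error 0.13, adjusted p = 0.201), and -0.19 (standard error 0.13, adjusted p = 0.974) in treated against untreated mice.

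Stra6 (ENSMUSG00000032327, chromosome 9), the membrane receptor that takes up retinol from Rbp4, had the largest standard error of the genes with at least 20 counts on average, 0.44 in each comparison. Its levels were 4.46, 14.9 and 10.4 CPM in WT, 6.42, 4.10 and 10.4 CPM in untreated and 7.45, 11.7 and 12.6 CPM in treated mice. The groups overlapped in all 3 comparisons, and WT replicate 1 stood well below the other WT mice. WT replicate 1 also had the lowest summed level of choroid plexus markers among WT mice, 71.8 CPM against 4037 and 1328 CPM. It was lowest too for meningeal and perivascular fibroblast markers, at 51.9 CPM against 213 and 143 CPM. Most of the latter gap lay in Igf2, with 530, 4111 and 2490 counts in WT replicates 1, 2 and 3. The list's other genes were mixed. In the same order, Col1a2 was lowest in WT replicate 1 (4.68, 7.41 and 9.74 CPM). Dcn (4.27, 3.19 and 5.78 CPM) and Foxc1 (2.38, 1.8 and 4.85 CPM) were not. In the HD mice, Stra6 and the choroid plexus sum shared their order only in part. Untreated replicate 3 had the lowest choroid plexus sum of its group (42.6 CPM) and the highest Stra6. Treated replicate 2 had the lowest sum of its group (45.5 CPM) with Stra6 at 11.7 CPM, and treated replicate 3 was highest in both. The part of these markers in the spread of Stra6 was not tested. For Stra6 the log2 fold change was -0.51 (95% interval -1.51 to 0.48) in untreated against WT, 0.09 (95% interval -0.89 to 1.07) in treated against WT and 0.60 (95% interval -0.39 to 1.59) in treated against untreated mice. Each interval includes higher and lower levels, and no change was detectable at this spread between mice.

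Rdh10 (ENSMUSG00000025921, chromosome 1), which makes retinaldehyde from retinol, had 9.10, 11.6 and 11.2 CPM in WT, 7.51, 9.71 and 9.11 CPM in untreated and 8.06, 8.73 and 9.56 CPM in treated mice. WT replicates 2 and 3 were above every HD mouse, but WT replicate 1 lay within their range. Rdh10 had a log2 fold change of -0.27 against WT in both untreated (standard error 0.15, adjusted p = 0.258) and treated mice (standard error 0.15, adjusted p = 0.329), and 0.00 (95% interval -0.33 to 0.34) between the HD groups. Dhrs3 (ENSMUSG00000066026, chromosome 4), which returns retinaldehyde to retinol and is itself raised by retinoic acid in many cells, had 11.8, 14.6 and 14.7 CPM in WT, 15.8, 10.8 and 16.6 CPM in untreated and 11.8, 15.2 and 16.1 CPM in treated mice. The 3 groups covered nearly the same range. Its log2 fold change was 0.07 in untreated (95% interval -0.34 to 0.49) and 0.07 in treated mice against WT (95% interval -0.35 to 0.48), and -0.01 (95% interval -0.42 to 0.41) between the HD groups.

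Aldh1a1 (ENSMUSG00000053279, chromosome 19), the first of the 3 enzymes that make retinoic acid, had 1186 to 1608 counts in each library. Its levels were 58.8, 45.0 and 43.9 CPM in WT, 44.8, 43.5 and 40.3 CPM in untreated and 49.3, 49.9 and 47.2 CPM in treated mice. Every treated mouse was above every untreated mouse, while WT mice overlapped with both HD groups, with WT replicate 1 as the highest of all 9 mice. WT replicate 1 was likewise the WT mouse with the highest summed level of cortical excitatory neuron markers, 942 CPM against 401 and 247 CPM in the others. Between groups the order was not shared. Untreated mice had the highest cortical sums (1093 to 1296 CPM) and the lowest mean Aldh1a1 (42.8 CPM). Between treated and untreated mice Aldh1a1 had a log2 fold change of 0.19 (standard error 0.11, 95% interval -0.06 to 0.44, adjusted p = 0.938), which did not pass the test. Against WT it was -0.20 (standard error 0.11, adjusted p = 0.272) in untreated and -0.01 (standard error 0.11, adjusted p = 0.965) in treated mice.

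Aldh1a2 (ENSMUSG00000013584, chromosome 9), the enzyme best known from the meninges and the embryo, had 1.40, 1.5 and 2.13 CPM in WT, 1.23, 2.25 and 2.79 CPM in untreated and 1.75, 1.68 and 1.65 CPM in treated mice. Untreated mice held both the lowest and the highest value of the 9, and all 3 comparisons overlapped. Its log2 fold change was 0.31 (95% interval -0.38 to 1.01) in untreated against WT, 0.01 (95% interval -0.69 to 0.71) in treated against WT and -0.30 (95% interval -1.0 to 0.39) in treated against untreated mice.

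Aldh1a3 (ENSMUSG00000015134, chromosome 7), the third retinoic acid synthesising enzyme, was counted 4, 2 and 0 times in the WT mice, 5, 20 and 20 times in the untreated mice and 10, 11 and 12 times in the treated mice. Every HD mouse had more counts than every WT mouse, although untreated replicate 1 exceeded WT replicate 1 by a single count. Relative to library size, WT mice averaged 0.0748 CPM (SD 0.0756), untreated mice 0.509 CPM (SD 0.289) and treated mice 0.352 CPM (SD 0.0416). Untreated against WT mice gave a log2 fold change of 2.75 (standard error 0.80, 95% interval 0.95 to 4.54, adjusted p = 0.0577) and treated against WT mice one of 2.22 (standard error 0.82, 95% interval 0.38 to 4.05, adjusted p = 0.159). Neither passed the adjusted threshold, although DESeq2 gave an adjusted p of 0.0268 for untreated against WT mice, and edgeR gave 0.0445 without WT replicate 1 and 0.0380 without untreated replicate 1. With a mouse left out, the log2 fold change ranged from 2.15 (without WT replicate 3) to 3.69 (without WT replicate 1) in untreated mice and from 1.63 to 3.17 (without the same mice) in treated mice, and with the Y-linked covariate it was 1.23 and 0.30. Aldh1a3 passed the filter on low counts only through the HD mice, so that it could enter the test only as a gene higher in them.

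Crabp1 (ENSMUSG00000032291, chromosome 9), the cytoplasmic retinoic acid binding protein, was counted 107, 122 and 124 times in the WT mice, 64, 51 and 33 times in the untreated mice and 92, 67 and 112 times in the treated mice. Scaled to CPM the WT mice had 4.04, 4.48 and 4.12, the untreated mice 2.25, 1.71 and 1.12, and the treated mice 2.82, 2.21 and 3.62. All WT mice were above all HD mice, and treated replicates 1 and 3 were above every untreated mouse, whereas treated replicate 2 fell just under untreated replicate 1. WT mice averaged 4.21 CPM (SD 0.232), untreated mice 1.69 CPM (SD 0.562) and treated mice 2.88 CPM (SD 0.707). WT, treated, untreated was also the order of the striatal projection neuron markers, whose part in this was not tested. Crabp1 was 2.49-fold lower in untreated than in WT mice (log2 fold change -1.31, standard error 0.28, 95% interval -1.94 to -0.69, adjusted p = 0.0204 by edgeR). This call was lost without WT replicate 2 (log2 fold change -1.26, adjusted p = 0.0648), without untreated replicate 2 (-1.33, adjusted p = 0.0567), and with the presence of Y-linked counts as a covariate (-0.91, adjusted p = 0.275). Treated against WT mice gave a log2 fold change of -0.55 (standard error 0.27, 95% interval -1.15 to 0.06, adjusted p = 0.276). Treated against untreated mice gave one of 0.77 (standard error 0.28, 95% interval 0.15 to 1.39, adjusted p = 0.886), and no gene in the striatum passed edgeR's adjusted threshold in this comparison.

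Crabp2 (ENSMUSG00000004885, chromosome 3), which carries retinoic acid to its nuclear receptors, was counted 41, 51 and 59 times in WT, 28, 26 and 37 times in untreated and 37, 35 and 25 times in treated mice. In CPM the WT mice had 1.55, 1.87 and 1.96, the untreated mice 0.982, 0.873 and 1.26, and the treated mice 1.13, 1.15 and 0.808. All 6 HD mice were below all 3 WT mice, and the HD groups overlapped each other. Crabp2 had a log2 fold change of -0.79 (standard error 0.26, 95% interval -1.37 to -0.21, adjusted p = 0.0803) in untreated mice against WT and of -0.80 (standard error 0.26, 95% interval -1.37 to -0.22, adjusted p = 0.116) in treated mice against WT. Neither passed the test. Between the HD groups it was -0.01 (95% interval -0.59 to 0.58). The values of both binding proteins against WT rest on the same 3 WT libraries.

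**Figure D2:**
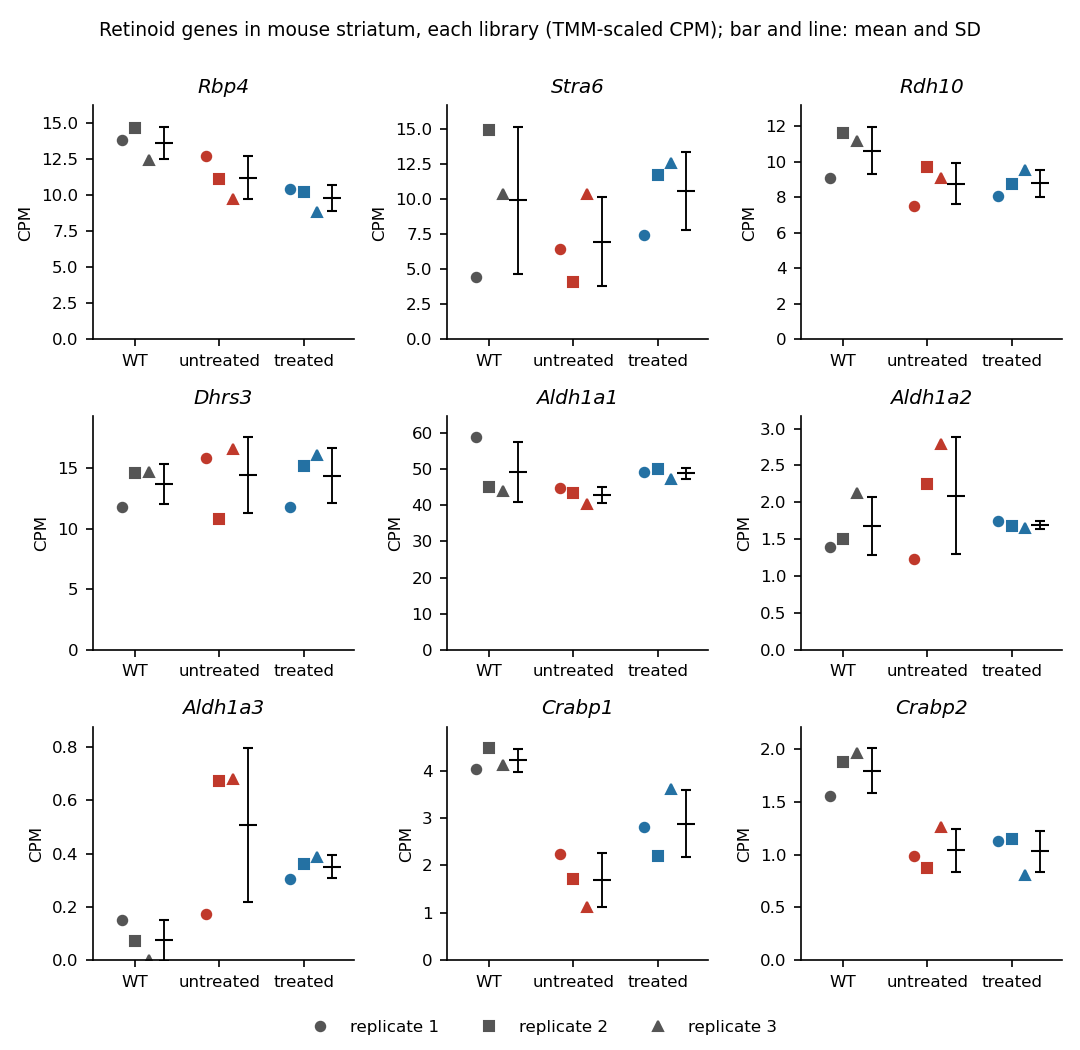
CPM (vertical axes, from 0) of the 9 genes in each library, by group, with a symbol for each replicate and the group mean with its SD beside the points. Crabp1 and Crabp2 were highest in the 3 WT mice, Aldh1a3 lowest there, and Dhrs3 covered much the same range in every group. For Stra6 the groups overlapped, with 4.46 to 14.9 CPM in WT, 4.1 to 10.4 CPM in untreated and 7.45 to 12.6 CPM in treated mice.

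Counted over the 9 genes, all of which passed the filter on low counts, 1 had changed in untreated against WT mice, 0 in treated against WT mice and 0 in treated against untreated mice. The share of all tested genes that changed was 10.7%, 3.69% and 0% in the same order, so that 1 of 9 is near the background of the first comparison. At an unadjusted P under 0.05, 3, 3 and 1 of the 9 genes were counted, against 28.6%, 21.4% and 5.5% of all tested genes. DESeq2 called 2 (Crabp1 and Aldh1a3), 1 (Rbp4) and 0 (Aldh1a3 had no adjusted p there), against 17.9%, 10.2% and 0.292% of the genes to which it gave an adjusted p. Across all genes, treated against untreated mice gave 0 changed genes by edgeR, 1071 at an unadjusted P under 0.05 and 48 by DESeq2. The study's results call a differentially expressed gene (DEG) at an unadjusted P under 0.05 and its methods at a P under 0.01, both with a change of at least 2-fold. At a P under 0.05, 2 of the 9 genes were DEGs in untreated mice against WT, Crabp1 lower and Aldh1a3 higher, against 8.16% of all tested genes. In treated mice against WT 1 was a DEG, Aldh1a3, against 5.22% of all genes, and between the HD groups 0 were, against 0.771% of all genes. At a P under 0.01 the 3 counts were 2, 0 and 0. Without Aldh1a3, which passed the filter only through the HD mice, 1, 0 and 0 of the other genes were DEGs at a P under 0.05. The groups did not overlap for 3, 4 and 1 of the 9 genes, against 30.1%, 28.6% and 15.8% of all tested genes. Aldh1a3 was among these genes, and among those with an unadjusted P under 0.05, in both comparisons with WT. Its place in these counts and in the DESeq2 count was open to it only as a gene higher in HD mice. The median log2 fold change of the 9 genes was -0.27 in untreated against WT, -0.01 in treated against WT and -0.01 in treated against untreated mice, and that of all tested genes was 0.02, 0.00 and -0.01.

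**Figure D3:**
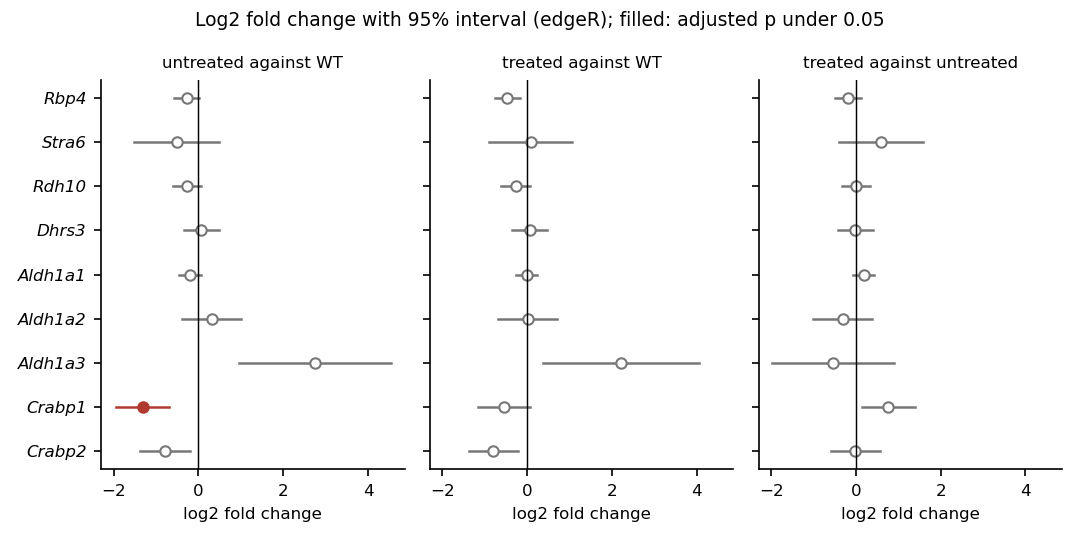
Log2 fold change (horizontal axes) of each of the 9 genes in the 3 comparisons, as the edgeR estimate with its 95% interval, and filled where the adjusted p was under 0.05. Crabp1 in untreated against WT mice, at -1.31, is the filled point, and the interval of Aldh1a3 is the widest in each comparison.

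The rest of the retinoid pathway was followed with 47 further genes, of which 31 passed the filter on low counts. In untreated against WT mice, 2 of the 31 rose and 3 fell, and in treated against WT mice 0 rose and 3 fell. Of all tested genes 10.7% and 3.69% changed in these comparisons. In treated against untreated mice 0 changed by edgeR, 4 had an unadjusted P under 0.05 and DESeq2 called 3. Of all tested genes 5.5% had such a P, and DESeq2 called 0.292% of the genes to which it gave an adjusted p. The median log2 fold change of the 31 genes was -0.16, -0.06 and 0.11 in these comparisons. All changed genes were receptors or genes listed as retinoic acid targets. In untreated against WT mice 1 of 6 receptors rose and 2 fell. Of 6 tested target genes, 1 rose (Zfp703), 1 fell (Drd2) and the others did not change. In treated against WT mice 2 receptors and Drd2 fell. Of 11 tested enzymes outside the 9 genes and 7 tested retinol carriers and esterification enzymes, 0 changed in any comparison by edgeR, and at an unadjusted P under 0.05 there were 4 enzymes and 3 carriers in untreated against WT mice, 0 and 2 in treated against WT mice and 0 and 0 between the HD groups, against the same 28.6%, 21.4% and 5.5% of all tested genes. Of 3 enzymes that break down retinoic acid, only Cyp26b1 was tested, and its log2 fold change was 0.05 (95% interval -0.55 to 0.65) in untreated and 0.46 (95% interval -0.13 to 1.05) in treated mice against WT.

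Rarb (ENSMUSG00000017491, chromosome 14), the retinoic acid receptor whose upstream sequence holds the motif shown in capitals, had 48.2, 64.3 and 71.8 CPM in WT, 15.4, 17.6 and 16.2 CPM in untreated and 29.7, 32.8 and 31.7 CPM in treated mice. The 3 groups did not overlap, with treated mice between the others. Rarb was 3.75-fold lower in untreated (log2 fold change -1.91, standard error 0.14, adjusted p = 0.000239) and 1.96-fold lower in treated mice than in WT (log2 fold change -0.97, standard error 0.14, adjusted p = 0.00654). The call in treated mice was lost without treated replicate 1 (log2 fold change -0.93, adjusted p = 0.0516). In treated against untreated mice its log2 fold change was 0.94 (standard error 0.14, 95% interval 0.63 to 1.25, adjusted p = 0.348 by edgeR), a value tied with those of the striatal projection neuron markers Adora2a and Tac1 as the smallest in that comparison.

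Rxrg (ENSMUSG00000015843, chromosome 1), the RXR form found with Rarb in the striatum, had 104, 141 and 122 CPM in WT, 33.7, 41.6 and 42.1 CPM in untreated and 61.5, 64.9 and 66.8 CPM in treated mice. The 3 groups again did not overlap. Its log2 fold change was -1.64 (standard error 0.12, adjusted p = 0.000239) in untreated and -0.93 (standard error 0.12, adjusted p = 0.00456) in treated mice against WT, and 0.72 (standard error 0.12, 95% interval 0.45 to 0.99, adjusted p = 0.398) between the HD groups. Drd2 (ENSMUSG00000032259, chromosome 9), a dopamine receptor of striatal projection neurons and a retinoic acid target, was counted 4701, 7354 and 6595 times in WT, 1613, 1982 and 1659 times in untreated and 2815, 2835 and 3106 times in treated mice. Its order of groups was the same, without overlap. Its log2 fold change was -1.89 (standard error 0.14, adjusted p = 0.000262) in untreated and -1.25 (standard error 0.14, adjusted p = 0.00331) in treated mice against WT, and 0.64 (standard error 0.14, adjusted p = 0.736) between the HD groups. Rarb, Rxrg and Drd2 fell together with the striatal projection neuron markers, whose summed level in untreated mice was 0.289 of that in WT, and in treated mice 0.422 of that in WT. The part of this in their lower levels was not tested. With the Y-linked covariate, the calls in treated against WT mice were lost for Rarb (log2 fold change -1.11, adjusted p = 0.295), Rxrg (-1.24, adjusted p = 0.128) and Drd2 (-1.37, adjusted p = 0.203). These 3 genes were also the ones called by DESeq2 in treated against untreated mice.

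Rara (ENSMUSG00000037992, chromosome 11), the most widely expressed RAR, moved the other way, with 8.20, 5.62 and 4.95 CPM in WT, 15.8, 10.4 and 16.6 CPM in untreated and 8.79, 8.93 and 8.04 CPM in treated mice. Untreated mice were above all other mice, and treated mice overlapped with WT. Summed cortical excitatory neuron markers had the same pattern (247 to 942 CPM in WT, 1093 to 1296 CPM in untreated and 745 to 811 CPM in treated mice). The part of these markers in the level of Rara was not tested. It rose by a log2 fold change of 1.19 in untreated against WT mice (standard error 0.23, adjusted p = 0.0142). This call was lost without WT replicate 2 (log2 fold change 1.12, adjusted p = 0.0513) and with the Y-linked covariate (1.34, adjusted p = 0.0842). The log2 fold change of Rara was 0.46 (standard error 0.23, adjusted p = 0.276) in treated against WT and -0.73 (standard error 0.22, adjusted p = 0.886) in treated against untreated mice. Zfp703 (ENSMUSG00000085795, chromosome 8), a transcriptional repressor, had 23.6, 21.9 and 13.4 CPM in WT, 31.7, 29.4 and 38.2 CPM in untreated and 24.6, 23.0 and 26.2 CPM in treated mice. Its log2 fold change was 0.75 in untreated against WT mice (standard error 0.19, adjusted p = 0.0397). This call was lost in 11 of 16 alternative settings, with adjusted p from 0.0585 to 0.275, among them without WT replicate 2 and without each of the untreated and treated replicates in turn.

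The other 3 receptors did not pass the edgeR test in any comparison. Rxra (ENSMUSG00000015846, chromosome 2) had 45.0, 53.4 and 47.3 CPM in WT, 42.9, 35.0 and 33.4 CPM in untreated and 36.1, 34.4 and 36.9 CPM in treated mice. Every HD mouse was below every WT mouse. Its log2 fold change was -0.39 (standard error 0.11, adjusted p = 0.0512 by edgeR, 0.0154 by DESeq2) in untreated and -0.44 (standard error 0.11, adjusted p = 0.0586 by edgeR, 0.00949 by DESeq2) in treated mice against WT. Rxra passed the edgeR test in untreated mice without WT replicate 1 (adjusted p = 0.0451) or untreated replicate 1 (adjusted p = 0.0255), and in treated mice with only the compared groups (adjusted p = 0.0406) and without untreated replicate 1 (adjusted p = 0.0413) or untreated replicate 3 (adjusted p = 0.0383). For Rxrb (ENSMUSG00000039656, chromosome 17), with 68.6 to 96.0 CPM in WT and 55.4 to 65.0 CPM in untreated mice, the log2 fold change was -0.36 (standard error 0.12, adjusted p = 0.0915 by edgeR, 0.0497 by DESeq2). Rarg (ENSMUSG00000001288, chromosome 15) ranged from 11.4 to 16.6 CPM over the 9 mice, and its groups overlapped in every comparison.

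**Figure D4:**
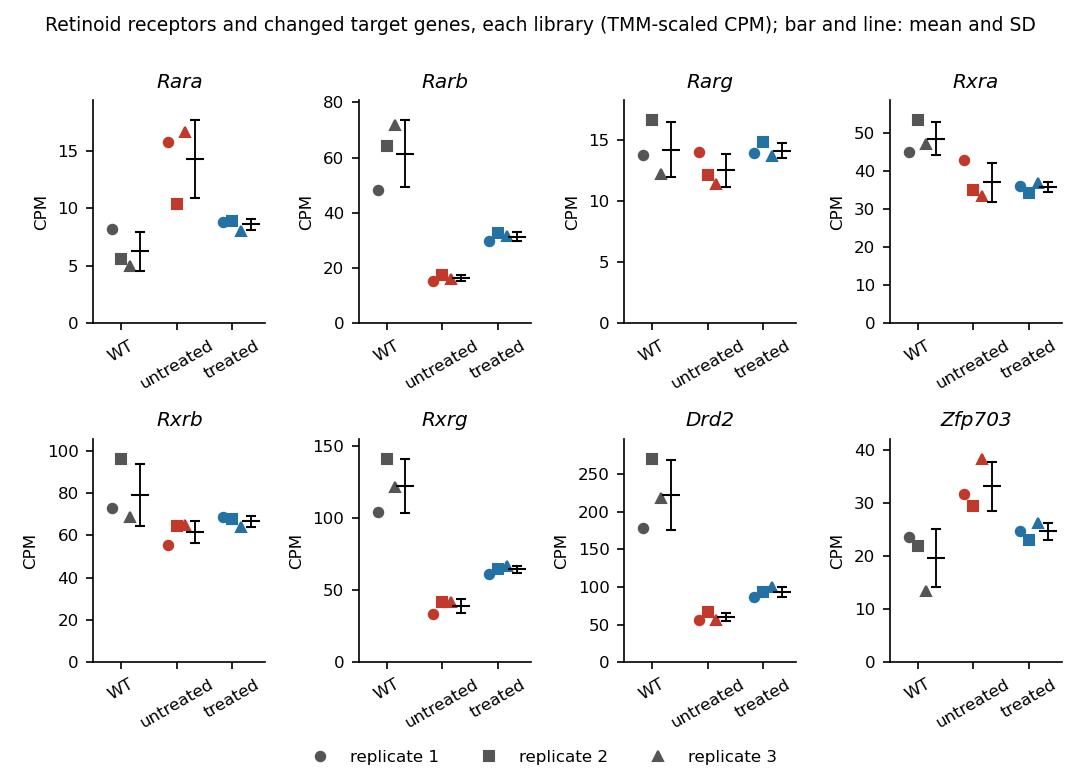
CPM (vertical axes, from 0) of the 6 retinoid receptors and of Drd2 and Zfp703 in each library, by group, with a symbol for each replicate and the group mean with its SD. Rarb, Rxrg and Drd2 separate all 3 groups, with WT highest and untreated lowest, whereas Rara and Zfp703 were highest in the 3 untreated mice.

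For each of the 8 genes with a mean of at least 20 counts, the tested genes most like it over the 9 libraries were found by Pearson's r of log2 CPM, and the r that was left after each group's mean was removed is given beside it. Being the highest values among all such genes, they are a description. Crabp1 was most like Gm10125 (r = 0.962, 0.856 within groups), Cul4a (0.961, 0.862) and Slc39a12 (0.959, 0.923), and Crabp2 most like Wdr48 (0.98, 0.935), Gas2l2 (0.974, 0.9) and Shcbp1l (0.961, 0.829). Rbp4 was most like Them6 (0.971, 0.903), Atg9a (0.961, 0.938) and Cog3 (0.959, 0.930), and Stra6 most like 9530068E07Rik (0.949, 0.953), Kirrel (0.948, 0.940) and Tcaf2 (0.931, 0.922). Among the enzymes, Rdh10 was most like Trp73 (0.937, 0.904), Nos1 (0.933, 0.915) and Usp27x (0.925, 0.875), and Dhrs3 most like Cdca8 (0.941, 0.948), Rbm28 (0.938, 0.939) and Thap6 (0.922, 0.953). Aldh1a1 was most like Mfsd8 (0.908, 0.903), Zfp869 (0.897, 0.986) and Gm9800 (0.895, 0.849), and Aldh1a2 most like B3galt4 (0.973, 0.978), Cnbd2 (0.966, 0.989) and Ndufa4l2 (0.939, 0.932). No gene appeared in more than 1 of these 8 groups of 3.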

How the data were processed

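RNA of the striatum of 9 mice was measured in 3′ mRNA libraries, 3 mice per group, as grouped by the labels. The authors deposited raw counts per Ensembl gene, without normalization. The study's methods name STAR, whereas the submitters' processing notes list Trimmomatic 0.39, FastQC 0.11.9, HISAT2 2.2.1, Subread and featureCounts 2.0.1 without roles. The mouse build and whether duplicate reads were collapsed are not given in the sources used here. Symbols came from GENCODE M21 (94.1% of IDs, 99.8% of counts). Pig counts were not used here.

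In R 4.3.3 with edgeR 4.0.16, genes were kept by filterByExpr, libraries scaled by TMM and all 9 fitted together with glmQLFit. The 3 comparisons were tested by glmQLFTest with Benjamini-Hochberg adjustment. Standard errors were obtained from each log2 fold change and its F statistic (log2 fold change over root F). Marker lists were summed in CPM. Alternatives were DESeq2 1.42.0, library size scaling, no filter, a mean of at least 10 counts, only the compared groups, a replicate block, a Y-linked covariate, a P under 0.01 for DEGs, and each mouse left out. The steps were tested on simulated data. Figures used matplotlib 3.10.9.

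The genes and lists were chosen with earlier results of these data known. The text names all 9 genes, the 6 receptors, further retinoid genes that changed or had the 3 smallest P in a comparison, Htt, Cyp26b1 (the only tested gene of its list, named after its values were seen), and the 3 genes most like each of the 9 with at least 20 counts on average. Log2 CPM for the latter used a prior count of 2. Single genes of the marker lists were named after their values were seen. Intervals are at 95%. Counts at a gene's 3′ end were not compared between genes.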

Additional observations from a re-analysis of the deposited data

How the results depend on the processing

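Of 427 values of the 9 genes over 16 alternative settings, 388 kept their direction and their side of the adjusted threshold, 3 lost it, 4 gained it and 32 changed sign. Counts are given where they moved by over 1.5 times. The number of the 9 genes that changed in untreated against WT mice (1) became 2 with DESeq2, 0 with the Y-linked covariate and 0 to 2 with a mouse left out (0 without WT replicate 2 or untreated replicate 2, 2 without WT replicate 1 or untreated replicate 1). In treated against WT mice (0) it became 1 with DESeq2. The number of DEGs in untreated against WT mice (2) became 1 with a mean of at least 10 counts, which removes Aldh1a3, 1 with only the compared groups and 0 with the Y-linked covariate. In treated against WT mice (1) it became 0 with a mean of at least 10 counts, with only the compared groups and with a P under 0.01, and was 0 to 1 with a mouse left out (0 without WT replicate 2, WT replicate 3 or treated replicate 3). Between the HD groups (0) it became 1 with the Y-linked covariate and was 0 to 1 with a mouse left out (1 without untreated replicate 1). The number of the 31 further retinoid genes that changed in untreated against WT mice (5) became 9 with DESeq2. There DESeq2 called 17.9% of all genes with an adjusted p. The number became 3 with the Y-linked covariate and 3 to 8 with a mouse left out (3 without WT replicate 2, 8 without WT replicate 1). In treated against WT mice (3) it became 0 with the Y-linked covariate and stayed at 2 to 4 elsewhere, and between the HD groups (0) 3 with DESeq2. The Y-linked covariate is set by untreated replicate 1 alone, since all WT mice have Y-linked counts and no treated mouse does.

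Signs turned only for log2 fold changes that had not passed the test. With the Y-linked covariate, Aldh1a2 was at -0.45 in untreated and -1.02 in treated against WT mice, Aldh1a1 at 0.08, Crabp1 at 0.11, Stra6 at -0.08 and Rarg at 0.24 in treated against WT mice, and Rdh10 at -0.10, Dhrs3 at 0.06 and Rxra at 0.07 between the HD groups. With library size scaling, which moved the median of all genes by 0.0104 to 0.058, Aldh1a1 and Rarg were at 0.05 in treated against WT mice, and Crabp2 and Dhrs3 at 0 between the HD groups. Rarg in treated against WT mice was at 0 with DESeq2, without a filter and with the block, as was Crabp2 between the HD groups without a filter. With a mouse left out, the log2 fold change in treated against WT mice ranged from -0.08 to 0.13 for Aldh1a1, -0.11 to 0.23 for Aldh1a2, -0.04 to 0.19 for Dhrs3, -0.27 to 0.51 for Stra6 and -0.09 to 0.13 for Rarg. Between the HD groups it ranged from -0.11 to 0.15 for Crabp2, -0.09 to 0.09 for Rdh10, -0.17 to 0.12 for Dhrs3 and -0.12 to 0.07 for Rxra, and in untreated against WT mice from -0.04 to 0.23 for Dhrs3. Why these values moved was not tested.

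Correlations of deviations from the group means ranged from -0.0805 to 0.236 between mice with the same replicate number. Between mice of different number they ranged from -0.282 to 0.156. These values do not settle whether mice with the same number were handled together, which the labels do not say. With a replicate block, Crabp1 in untreated against WT mice had a log2 fold change of -1.33 (edgeR adjusted p = 0.0318). Zfp703 lost its call (edgeR adjusted p = 0.0605), and no other call named here for the 9 genes, the receptors or Drd2 changed. With 3 mice in a group, edgeR's p-values set each group difference against a spread between mice estimated from all 9 libraries together. Aldh1a3, with 0 to 20 counts, has the widest intervals of the 9 genes.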

Other observations

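Among the further retinoid genes, 2 that varied widely within groups are given here, chosen after their values were seen. Ttr (transthyretin, ENSMUSG00000061808, chromosome 18), the partner of Rbp4 in plasma and a main product of the choroid plexus, was counted 1199, 94209 and 32369 times in the WT mice, 4548, 983 and 623 times in the untreated mice and 6671, 665 and 35169 times in the treated mice. WT mice alone spanned 1199 to 94209 counts, and the log2 fold change of Ttr in untreated against WT mice was -4.42 (standard error 1.66, edgeR adjusted p = 0.115). Rdh5 (ENSMUSG00000025350, chromosome 10), a retinol dehydrogenase best known from the retinal pigment epithelium, had 3.17, 23.8 and 9.77 CPM in WT, 3.37, 4.16 and 3.19 CPM in untreated and 4.01, 4.32 and 8.95 CPM in treated mice. Its highest values stood in WT replicates 2 and 3 and treated replicate 3, the same 3 mice that had the highest summed choroid plexus markers (4037, 1328 and 1400 CPM). The choroid plexus list includes Ttr itself, and how far choroid plexus tissue in a sample sets these levels was not tested. Rbp4 did not follow them, with 13.8, 14.6 and 12.4 CPM in the WT mice.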
